A study of Mus musculus with 6 samples.

Results

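The genes described here are 37 genes known to be active in endothelium, the lining of blood vessels, and in endocardium, the endothelial lining of the heart. They were taken by name as a fixed list, not by their values. The platform annotation listed 40 probes for 36 of them and none for Eng, which is not analysed here. For 34 of the 37 genes a probe was flagged brighter than background on 3 or more of the 6 arrays, out of 15012 genes measured in all, and the brightest probe stands for each gene. The other two, Cdh5 and Flt1, were too dim: Cdh5, the vascular cadherin of endothelial junctions, was above background on 1 array and Flt1, a VEGF receptor, on 0.

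The RNA was that of embryonic mouse hearts (embryonic day 11.5), with 1 sample on each of 6 arrays. In 3 mutant samples the gene for Dicer, the enzyme that cuts miRNA precursors, had been inactivated by a Cre recombinase knocked into the Nkx2.5 locus. The 3 control samples were embryonic hearts whose genotype the labels do not give. The labels also do not say whether a sample was 1 embryo, a pool or part of a litter, and p-values therefore reflect no more than sample-to-sample spread, part of which may be technical. The Cre driver is active in cardiac progenitors and in the myocardium that they form, and in some endocardial cells. A whole heart at this age holds cardiomyocytes, endocardium, cushion mesenchyme, epicardium and blood.

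Endothelial cells take their identity from ETS and SoxF transcription factors, which switch on receptors for VEGF and angiopoietins, junction proteins and surface glycoproteins. The endocardium also signals to the myocardium through Notch and neuregulin and gives rise to the cushion mesenchyme of the valves. It carries an abundant miRNA of its own, miR-126, which is made from an intron of the endothelial gene Egfl7, so that the host gene's transcript can be read on the array where the miRNA cannot.

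Dicer1 checked the labels: its log2 level was 6.74, 6.73 and 6.68 on the mutant arrays against 7.82, 7.63 and 7.71 on the control arrays, which gives a limma difference of -1.0 ± 0.09 (SE, adjusted p = 0.0355). The position of this probe with respect to the deletion was not determined. On each array 74.1% to 78.2% of 36227 spots were above background and 184 to 263 were saturated. Arrays within a group differed widely: on principal component 1 (54.9% of variance) controls 1 and 2 lay at 35.4 and 25 and control 3 at -19.9, beside mutants 1 and 2 at -16.8 and -28.4. Mutant 3 stood apart on component 2 (21.2% of variance), at -32.4 against values between 0.49 and 9.06. The differences of many of the genes below depended on mutant 1, mutant 3 or control 3, and values without such an array are given beside many of them.

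Most of the endothelial genes were measurable in both groups. None of the 34 genes passed limma's test at an adjusted p under 0.05 (0.06% of all genes did). The differences were small, with 1 gene beyond 0.5 on the log2 scale in either direction (8.45% of all genes). They leaned to the mutant side being lower: 27 of 34 genes had a difference below 0 (47.6% of all genes), with a median of -0.12 against 0.01 over all genes. At an unadjusted p under 0.05, limma gave 3 genes lower, Cd34, Lmo2 and Esam (3.47% of all genes), and 1 higher, Vwf (6.71% of all genes). In 8 genes every mutant array lay below every control array (5.48% of all genes), namely Cd34, Cd93, Egfl7, Esam, Kdr, Lmo2, Ramp2 and Tie1, and in 1, Vwf, every mutant array lay above (9.71% of all genes). In whole-heart RNA, fewer endothelial cells and less RNA per cell cannot be told apart.

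**Figure D1:**
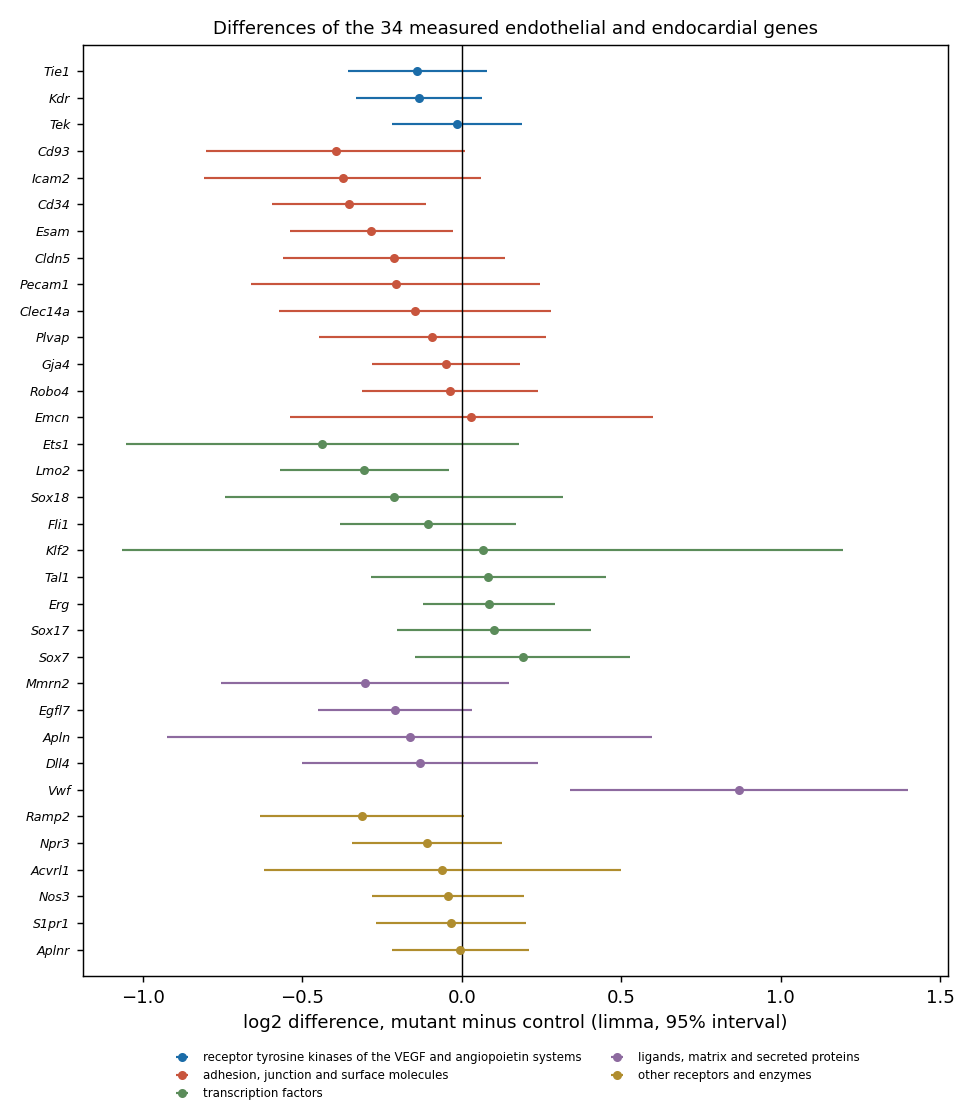
Log2 difference (mutant minus control) of each of the 34 measured endothelial and endocardial genes, with the 95% interval of the limma fit, coloured by role and sorted within it. Most points lie slightly left of 0, Vwf lies at 0.87, and Klf2 has the widest interval.

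The precision limits what a small difference can mean. For 31 of the 34 genes the 95% interval lay within 1 on the log2 scale, that is within a 2-fold change either way (90.5% of all genes), the exceptions being Ets1, Klf2 and Vwf. The median standard error was 0.14 on the log2 scale, against 0.13 over all genes. All log2 differences carry the offset of the background correction, which pulls those of dim probes towards 0. With the authors' normalized intensity, which has no offset, the median over the 34 genes was -0.19.

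The 3 endothelial markers behaved unequally on this platform. Pecam1, the adhesion receptor CD31, had log2 levels of 7.07, 7.54 and 7.77 on the mutant arrays against 7.53, 7.66 and 7.81 on the control arrays. Mutant 1 was low and the other mutants lay within the controls' range. The difference of -0.21 ± 0.19 (SE) had a limma adjusted p of 0.729, and it was -0.01 without mutant 1, -0.36 without mutant 3 and -0.13 without control 3. Tie1, the orphan partner of the angiopoietin receptor, had 10.57, 10.70 and 10.65 on the mutant arrays against 10.71, 10.86 and 10.77 on the control arrays. The groups only just failed to overlap. Its difference was -0.14 ± 0.09 (adjusted p = 0.629), and with the authors' normalized intensity or with median scaling the groups overlapped. The Cdh5 probe gave 6.10, 5.90 and 6.43 on the mutant arrays against 6.13, 6.11 and 6.11 on the control arrays, and only 1 mutant spot was above background.

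Among the receptor tyrosine kinases, Kdr, the main VEGF receptor, had 10.63, 10.69 and 10.74 on the mutant arrays against 10.80, 10.83 and 10.82 on the control arrays. The groups were close and did not overlap. Kdr stood at 0.912 of the control level (limma adjusted p = 0.612), with a 95% interval of 0.795 to 1.05. Tek, the angiopoietin receptor, had 9.25, 9.24 and 9.21 on the mutant arrays against 9.27, 9.17 and 9.31 on the control arrays, at 0.990 of the control level (95% interval 0.859 to 1.14). All Tek values lay within the span of the controls.

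The adhesion, junction and surface molecules held the most genes on the low side: 10 of 11 had a difference below 0, with a median of -0.21, and 0 passed. Cd34, a sialomucin of endothelial and blood progenitor cells, had 7.25, 7.38 and 7.52 on the mutant arrays against 7.75, 7.75 and 7.70 on the control arrays. All 3 mutants lay below all 3 controls, which were close to each other. Its difference of -0.35 ± 0.10 (SE, limma adjusted p = 0.31), or 0.783 of the control level, had the smallest unadjusted p of the genes on the low side, at 0.0107. It ranged from -0.42 to -0.29 with 1 array left out, and was -0.53 with the authors' normalized intensity.

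Esam, an immunoglobulin-family protein of endothelial junctions, had 10.32, 10.54 and 10.54 on the mutant arrays against 10.69, 10.87 and 10.69 on the control arrays, again without overlap. Its difference was -0.28 ± 0.11 (SE, limma adjusted p = 0.444). Cd93, a C-type lectin-like receptor, had 10.69, 10.98 and 11.35 on the mutant arrays against 11.37, 11.45 and 11.39 on the control arrays. Here the mutants were spread out, mutant 3 came close to the controls, and the controls were tight. The difference was -0.40 ± 0.17 (adjusted p = 0.509), but -0.24 without mutant 1 and -0.57 without mutant 3. The groups overlapped with the authors' normalized intensity.

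Icam2, an adhesion molecule of endothelium and platelets, gave -0.37 ± 0.18 (log2 difference ± SE), but control 3 lay within the mutants' range, and the difference was -0.22 without mutant 1. Cldn5, the tight junction claudin, gave -0.21 ± 0.15 and the endothelial lectin Clec14a -0.15 ± 0.18. Without control 3, Cldn5 gave -0.11 and Clec14a changed sign, to 0.03. Clec14a was -0.06 without mutant 1 and -0.23 without mutant 3. Other members lay close to 0: the connexin Gja4 at -0.05 ± 0.10 (SE) and the guidance receptor Robo4 at -0.04 ± 0.12. So did the diaphragm protein Plvap at -0.09 ± 0.15 and the sialomucin Emcn at 0.03 ± 0.24. Without mutant 1, Emcn gave 0.26, Plvap 0.02 and Robo4 0.03. Plvap gave -0.22 and Robo4 -0.10 without mutant 3. Emcn gave -0.14 and Robo4 0.05 without control 3. Both dimmer Plvap probes were also below 0, at -0.11 and -0.44, the latter above background on 3 arrays. The second Emcn probe was above background on 1 array and was not tested.

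The transcription factors had differences on both sides of 0, 4 below and 5 above, with a median of 0.07. Lmo2, a bridging protein of blood and endothelial transcription complexes, had 7.80, 7.80 and 7.66 on the mutant arrays against 8.22, 8.05 and 7.91 on the control arrays, without overlap. Its difference was -0.30 ± 0.11 (SE, limma adjusted p = 0.427), at 0.810 of the control level. Tal1, its partner in those complexes, had 11.98, 11.88 and 12.15 on the mutant arrays against 11.94, 12.18 and 11.65 on the control arrays, which overlap fully. Its difference was 0.08 ± 0.15.

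Of the ETS factors, none passed. Ets1 had 7.48, 7.37 and 7.51 on the mutant arrays against 8.14, 8.26 and 7.27 on the control arrays. Controls 1 and 2 were high, and control 3 was the lowest of all 6 arrays. The difference was -0.44 ± 0.26 (SE, limma adjusted p = 0.594), and -0.75 without control 3, where it passed (adjusted p = 0.0441). Erg gave 0.09 ± 0.09 and Fli1 -0.11 ± 0.12, the latter -0.20 without control 3. Erg had 6.98, 6.91 and 7.02 on the mutant arrays against 6.93, 6.91 and 6.81 on the control arrays, with overlap.

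The SoxF factors act early in endothelial and arterial fate, and none passed. Sox7 had 9.31, 9.43 and 9.81 on the mutant arrays against 9.36, 9.29 and 9.33 on the control arrays, so that its difference of 0.19 ± 0.14 (SE) came mostly from mutant 3. It was 0.05 without mutant 3 and 0.29 without mutant 1. Sox17 had 6.99, 7.14 and 7.0 on the mutant arrays against 6.76, 6.90 and 7.17 on the control arrays, a difference of 0.10 ± 0.13, or 0.21 without control 3, while its dimmer probe gave -0.03. Sox18 gave -0.21 ± 0.22, with the groups overlapping, and -0.03 without control 3 or -0.08 without mutant 3.

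Klf2, a factor that endothelial cells switch on under blood flow, was the most variable of the 34. It had 12.14, 12.08 and 10.48 on the mutant arrays against 11.10, 11.41 and 11.97 on the control arrays. Mutant 3 was low and mutants 1 and 2 were above every control. The difference was 0.07 ± 0.47 (SE, limma adjusted p = 0.969), and 0.61 without mutant 3 (adjusted p = 0.336), 0.31 without control 3 and -0.22 without mutant 1.

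**Figure D2:**
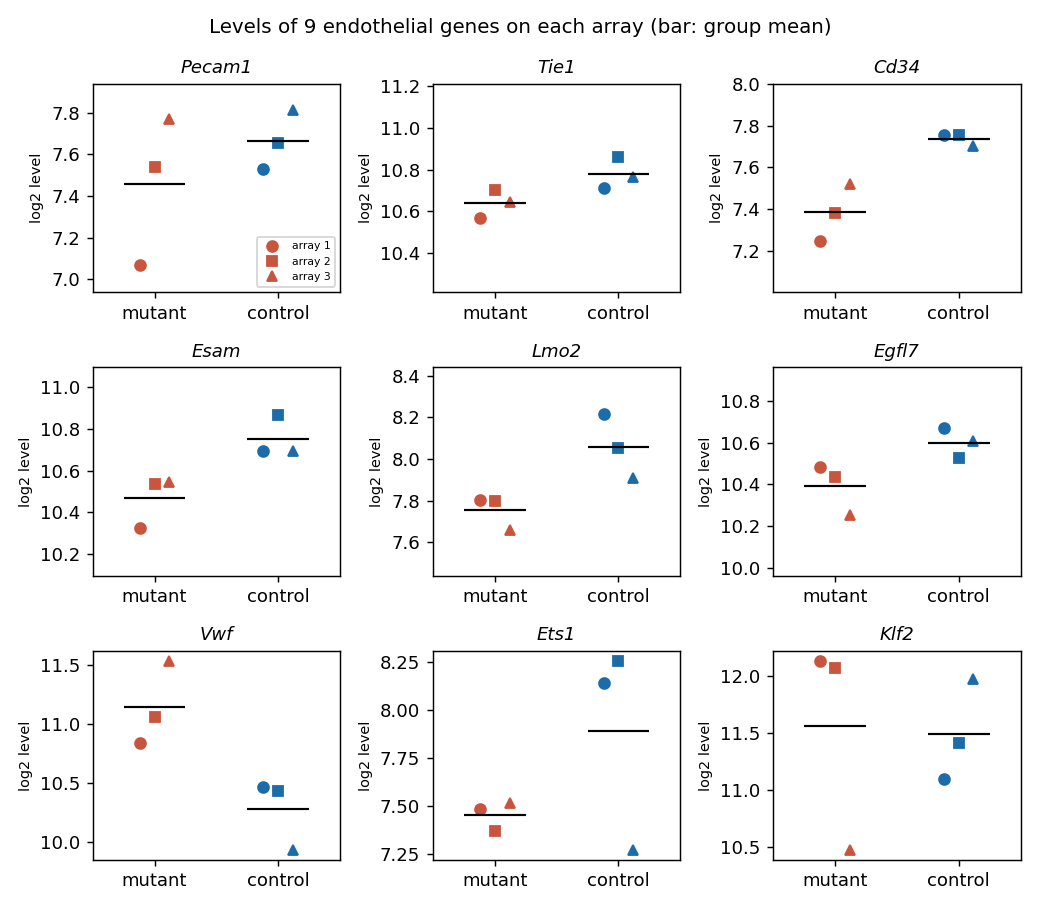
Log2 level of 9 endothelial genes on each array, with mutants in red, controls in blue, marker shapes for array numbers 1 to 3 within a group, and a bar at the group mean. Vertical axes differ in place and span. The groups separate for Tie1, Cd34, Esam, Lmo2, Egfl7 and Vwf, while Klf2 is low in mutant 3 and Ets1 is low in control 3.

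Of the secreted and matrix proteins, Vwf, the clotting glycoprotein that endothelium stores, was the 1 gene of the 34 on the high side without overlap. It had 10.84, 11.06 and 11.53 on the mutant arrays against 10.47, 10.43 and 9.93 on the control arrays. Mutant 3 was the highest array and control 3 the lowest. The difference of 0.87 ± 0.22 (SE) corresponds to 1.83 times the control level (95% interval 1.26 to 2.64). Its limma adjusted p was 0.261 and its unadjusted p 0.00643. The difference was 0.68 without mutant 3 and 0.70 without control 3. Platelets also make Vwf. Of their markers, Ppbp gave 0.62 ± 0.34 (SE), and Gp9, Pf4, Treml1, Itga2b and Gp1bb, named after their values were seen, gave 0.21 ± 0.17, 0.12 ± 0.21, 0.13 ± 0.24, -0.06 ± 0.13 and -0.07 ± 0.08. The groups overlapped except for Gp1bb, where every mutant array lay below every control array. Ppbp was highest in mutant 1, at 10.14, and Vwf in mutant 3. The part of platelets in the Vwf result was not tested.

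Egfl7, the secreted protein whose gene hosts miR-126, had 10.48, 10.44 and 10.25 on the mutant arrays against 10.67, 10.53 and 10.61 on the control arrays, without overlap. It stood at 0.865 of the control level, with a 95% interval of 0.732 to 1.02 and a limma adjusted p of 0.55. With median scaling the groups overlapped. The mature miR-126a-3p is shown as a product that Dicer would release from this transcript, with the seed, bases 2 to 8, in capitals. RefSeq places it on build GRCm38.p6 at chr2:26591402-26591423, plus strand, inside Egfl7 at chr2:26581083-26592682.
mmu-miR-126a-3p: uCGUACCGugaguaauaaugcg

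Known targets of miR-126 were measured in 7 of 7 cases and none passed. Their median difference was -0.05, with 5 below 0. Spred1, an inhibitor of Ras signalling, gave 0.25 ± 0.14 (SE) and did not overlap between the groups. Rgs3 gave -0.20 ± 0.12 and Crk, named after its values were seen, -0.17 ± 0.09, both without overlap on the low side. The Spred1 levels were 6.33, 6.5 and 6.35 on the mutant arrays against 5.88, 6.27 and 6.29 on the control arrays.

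Mmrn2, an endothelial matrix multimerin, gave -0.30 ± 0.19 (SE), with mutant 1 low at 8.08 and the other arrays between 8.37 and 8.83. It was -0.13 without mutant 1 and -0.49 without mutant 3. Apln, the apelin ligand of sprouting vessels, had 6.89, 7.71 and 8.01 on the mutant arrays against 7.36, 7.64 and 8.09 on the control arrays, with full overlap and a difference of -0.16 ± 0.32. The sign turned without mutant 1, at 0.16, and without control 3, at 0.03, and the difference was -0.40 without mutant 3. The Notch ligand Dll4 gave -0.13 ± 0.15, -0.00 without mutant 1 and -0.28 without mutant 3.

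Among the other receptors and enzymes, all 6 had a difference below 0, with a median of -0.05. Ramp2, which pairs with Calcrl to form the adrenomedullin receptor of vessels, had 11.03, 11.05 and 10.98 on the mutant arrays against 11.19, 11.20 and 11.61 on the control arrays, without overlap. The controls' mean was raised by control 3. Its difference was -0.31 ± 0.13 (SE, limma adjusted p = 0.509), and -0.17 without control 3. Calcrl, named after its values were seen, also lay below the controls on every mutant array, at -0.33 ± 0.10 (adjusted p = 0.352).

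Npr3, the natriuretic peptide clearance receptor of the endocardium, had a difference of -0.11 ± 0.10 (SE), with mutant 1 at 7.15 and the other arrays between 7.34 and 7.44, and was -0.04 without mutant 1. Acvrl1, the BMP9 and BMP10 receptor ALK1, gave -0.06 ± 0.23, and the mutants alone spanned 6.57 to 7.48. It was 0.13 without mutant 1 and -0.32 without mutant 3. Nos3, the endothelial nitric oxide synthase, gave -0.04 ± 0.10, S1pr1, the sphingosine phosphate receptor, -0.03 ± 0.10, and Aplnr, the apelin receptor, -0.00 ± 0.09. The S1pr1 probe was above background on 4 arrays. The Nos3 spot of mutant 3 was flagged irregular and was kept.

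Promoters are shown for the 4 genes that separated the groups on the low side and have an entry in the RefSeq promoter table (build GRCm38.p6). Each line gives the 250 bases before the annotated start, 5′ to 3′ on the gene's strand, and for Egfl7 the most upstream of 3 starts. Capitals mark a 6-base ETS match, AGGAAG or CGGAAG on either strand.
Cd34 (chr1:194938571-194938820, plus strand): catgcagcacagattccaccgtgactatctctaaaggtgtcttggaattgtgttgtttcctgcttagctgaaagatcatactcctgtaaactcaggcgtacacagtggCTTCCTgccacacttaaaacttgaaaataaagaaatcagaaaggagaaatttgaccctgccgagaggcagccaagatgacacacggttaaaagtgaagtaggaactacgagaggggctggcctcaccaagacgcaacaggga
Tie1 (chr4:118489850-118490099, minus strand): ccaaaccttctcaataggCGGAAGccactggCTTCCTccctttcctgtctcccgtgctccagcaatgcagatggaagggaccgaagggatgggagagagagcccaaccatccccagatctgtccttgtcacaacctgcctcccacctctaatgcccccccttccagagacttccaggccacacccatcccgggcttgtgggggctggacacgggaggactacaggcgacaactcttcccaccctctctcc
Kdr (chr5:75978456-75978705, minus strand): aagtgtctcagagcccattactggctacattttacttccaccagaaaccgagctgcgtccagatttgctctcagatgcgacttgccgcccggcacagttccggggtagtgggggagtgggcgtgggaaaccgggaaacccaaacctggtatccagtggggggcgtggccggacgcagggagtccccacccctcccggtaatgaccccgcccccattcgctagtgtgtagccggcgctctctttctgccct
Egfl7 (chr2:26580833-26581082, plus strand): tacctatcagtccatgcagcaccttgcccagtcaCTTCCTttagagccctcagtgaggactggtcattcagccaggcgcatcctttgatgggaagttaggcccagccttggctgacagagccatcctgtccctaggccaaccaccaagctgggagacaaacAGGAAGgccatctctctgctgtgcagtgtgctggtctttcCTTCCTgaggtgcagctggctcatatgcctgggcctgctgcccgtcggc

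Such a match stood in 3 of these windows and not in that of Kdr. The other Egfl7 windows, not shown, held 1 and 0 matches. Over the listed genes, 10 of 23 windows of 18 genes held one (43.5%), against 39.2% of 32851 windows in the table. A match is only a run of letters.

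The genes were compared array by array. Mutant 1 was the lowest of all 6 arrays for 18 of the 34 genes (15.8% of all genes), and the lowest mutant for 21 (33% of all genes). Mutant 3 was the highest mutant for 20 (40.8% of all genes), and control 3 the highest of all arrays for 12 (21.1% of all genes). The median log2 level relative to each gene's mean was -0.14 in mutant 1, -0.02 in mutant 2 and 0.02 in mutant 3, against -0.01, 0.03 and 0.11 in the controls, so the groups overlapped. Without mutant 1 the median difference was -0.05 and 23 of 34 genes lay below 0. Without control 3 it was -0.07, with 21 below 0.

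**Figure D3:**
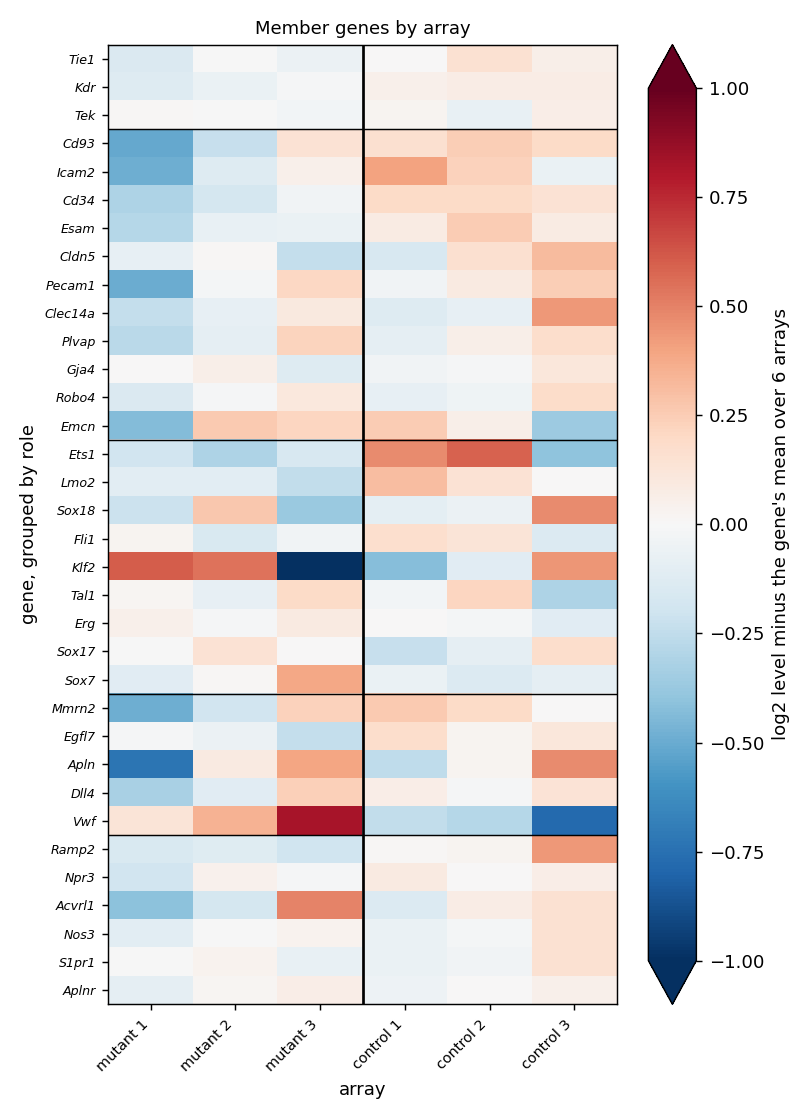
Log2 level of each of the 34 genes on each of the 6 arrays, minus the gene's mean over all 6, with genes grouped by role, mutants left of the heavy line and a colour scale from -1 to 1. Mutant 1 is blue for most surface molecules, such as Pecam1 and Cd93, and Klf2 is dark blue in mutant 3.

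Partner genes outside the list were given by lists taken from general knowledge. Of ligands and co-receptors of the VEGF, angiopoietin and apelin systems, 14 of 16 were measured, 0 passed and the median was 0.05. Vegfc, a VEGF receptor ligand, had 8.50, 8.29 and 8.44 on the mutant arrays against 8.90, 8.82 and 8.78 on the control arrays, a difference of -0.42 ± 0.10 (SE, limma adjusted p = 0.22). Angpt2, the antagonist ligand of Tek, had 7.04, 7.13 and 7.05 on the mutant arrays against 6.84, 6.75 and 6.78 on the control arrays, a difference of 0.28 ± 0.08 (adjusted p = 0.336). Vegfa, the Kdr ligand, named after its values were seen, varied widely within the groups, from 9.09 to 10.92 in the mutants and 8.90 to 10.07 in the controls.

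Of 24 Notch, BMP and sphingosine phosphate partners, 19 were measured and 0 passed, with a median of -0.05. Heyl, a Notch target, gave -0.58 ± 0.19 and the cardiac ligand Bmp10 0.47 ± 0.18 (log2 difference ± SE), both without overlap. Of 23 endocardial and junction regulators, 21 were measured and 0 passed, with a median of -0.01. Nrg1, the endocardial growth factor that acts on the myocardium, had 7.24, 7.35 and 7.26 on the mutant arrays against 6.88, 6.92 and 7.0 on the control arrays. The groups did not overlap, and its difference of 0.35 ± 0.09 had a limma adjusted p of 0.256. Tmem100, an endothelial target of ALK1 signalling, gave -1.11 ± 0.42, with mutant 3 at 8.98 above control 3 at 8.62.

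Of 15 transcription factor partners, 12 were measured and 0 passed, with a median of -0.11. Lyl1, a relative of Tal1, gave -0.37 ± 0.15 without overlap, and Meis1 0.27 ± 0.15 (log2 difference ± SE). Genes listed for lymphatic endothelium, 7 of 7 measured, all had a difference below 0, with a median of -0.21 and 0 passing. Their mean level was 8.47 to 8.77 in the mutants and 8.62 to 9.15 in the controls, so the groups overlapped. Whether these hearts held lymphatic endothelium was not tested. Lyve1, which lymphatic endothelium and macrophages carry, gave -0.60 ± 0.21 without overlap, and Pdpn -0.21 ± 0.17.

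Markers of the other cells of the heart varied between arrays beside these genes, and 0 of any list passed. The mean log2 level of 14 erythroid genes, out of 16, was 9.66 to 10.15 in the mutants and 9.54 to 10.73 in the controls, with 13 differences below 0, Gata1 at -0.68 and Rhag at -0.30. Lmo2, Tal1 and Lyl1 are also genes of red cell precursors. Lmo2 and Lyl1 were highest in control 1, where the erythroid level was highest too. Among the controls, both genes and the erythroid level were lowest in control 3. By mean level, the erythroid genes were higher in every mutant than in control 3. By the median level relative to each gene's mean, mutant 2 lay below control 3, at -0.38 against -0.32. In every mutant Lmo2 and Lyl1 were below their control 3 levels. Tal1 had another order, highest in control 2 at 12.18, followed by mutant 3 at 12.15. The part of blood cells in these results was not tested. The 12 measured leukocyte and platelet genes, out of 18, ran from 7.81 to 7.91 in the mutants and 7.73 to 7.85 in the controls, with Ppbp at 0.62 and Cd53 at 0.19.

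Cardiomyocyte genes, 15 of 16 measured, had mean levels of 12.23 to 12.32 in the mutants and 12 to 12.67 in the controls, with Myl3 at -0.78 and Tnni3 at 0.41. Epicardial genes, 11 of 12 measured, had 8.70 to 8.82 in the mutants and 8.84 to 9.15 in the controls. Rspo1 stood at -0.86 and Bnc1 at -1.21, the latter with overlap between the groups. The median difference of these 11 genes was -0.17, with 9 below 0 and 2 above. The 2 were Wt1 at 0.11 and Upk3b at 0.20, named after their values were seen. Cushion mesenchyme genes, 13 of 14 measured, had 8.74 to 9.08 in the mutants and 9.02 to 9.17 in the controls, with Vcan at 0.61 and Postn at -0.56. Smooth muscle and pericyte genes, 9 of 10 measured, had 9.08 to 9.33 in the mutants and 9.04 to 9.12 in the controls, with Cnn1 at 0.48 and Kcnj8 at -0.31. The mean level of the 34 endothelial genes themselves was 8.52 to 8.72 in the mutants and 8.70 to 8.76 in the controls. By mean level, of these lists only the epicardial one did not overlap between the groups. It separated narrowly, at 8.82 in mutant 3 against 8.84 in control 3. By the median level relative to each gene's mean the epicardial list overlapped, with mutant 1 at -0.09 and control 3 at -0.10. The part of cell composition in the endothelial differences was not tested.

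**Figure D4:**
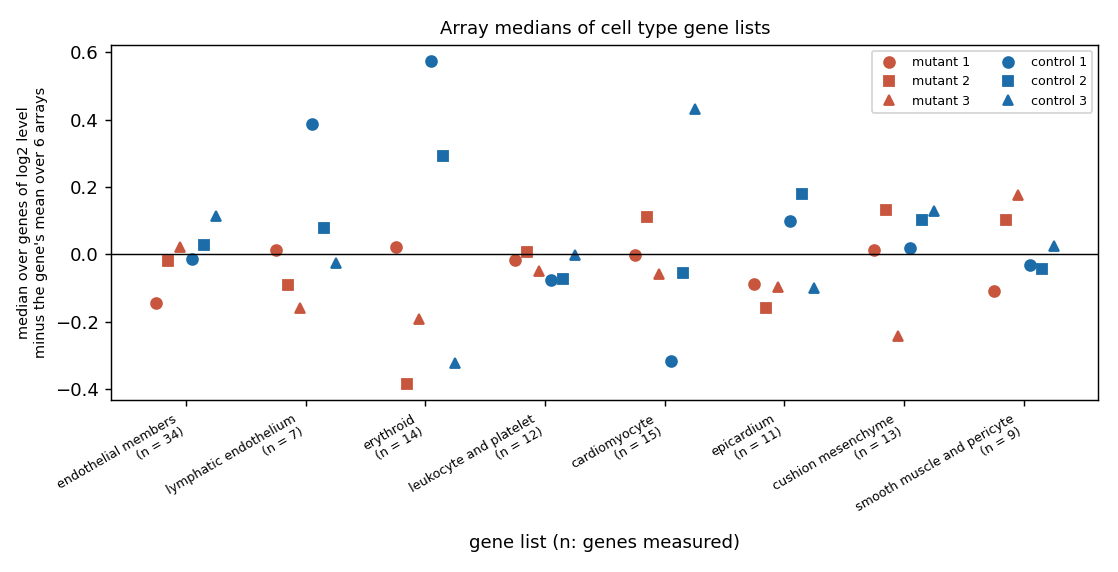
Median over the genes of a list of the log2 level minus each gene's mean over 6 arrays, with 1 point per array, mutants in red and controls in blue. The endothelial genes span -0.14 in mutant 1 to 0.11 in control 3, less than the erythroid genes, which run from -0.38 in mutant 2 to 0.57 in control 1.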

How the data were processed

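Gene expression was measured on 6 single-colour CodeLink arrays, 3 mutant and 3 control, with groups taken from the labels' descriptions. Per the file headers, the deposited intensity columns are the spot mean, the local background median, the background-subtracted intensity and the authors' normalized intensity, which was the subtracted one divided by 1 constant per array (66.1 to 82.8). For scanner, software and genome build: not given in the sources used here. Spots without a value were set to missing. Normexp (offset 50) was applied to the spot means, and log2 values were then quantile-normalized over the 21880 spots that the platform annotation lists with a gene, leaving out 14347 others. Probes with 1 gene that were flagged above background on at least 3 of 6 arrays, 17589 of 21676, were compared with limma 3.58.1 (R 4.3.3, lmFit and eBayes, two-sided, no block), and p-values were adjusted over all of them by the Benjamini-Hochberg method. Counts over all genes use the brightest probe of each. Symbols of all 34 measured genes matched RefSeq (GRCm38.p6) by gene number. The fit was tested on simulated data. The number of arrays limits precision.

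Named are all listed genes by role, with values per array for the 3 markers, for genes without overlap and for the 4 per direction with the smallest p, Dicer1, and, chosen after their values were seen, for Tek, Tal1, Ets1, Klf2 and Apln, and from each partner or marker list up to 2 genes with the smallest p; any other gene is said to have been named after its values were seen. The genes and lists were chosen with earlier results of these data known. Alternatives were other background corrections, scalings, filters, probe rules, blocks, an intensity trend and each array left out.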

Additional observations from a re-analysis of the deposited data

How the results depend on the processing

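With 34 genes measured in the main setting, 0 passed, and the same 0 was obtained with the subtracted intensity, median scaling, the authors' normalized intensity, the series' value table, no filter (36 genes), a filter on all 6 arrays (33 genes), the mean of a gene's probes, an intensity trend and, chosen after seeing the data, without spots flagged irregular or contaminated. The count became 2 with the first code of the array titles as a block, which compares mutants 1 and 2 with control 1 alone, where Klf2 passed at 1.0 and Ets1 at -0.72 (limma adjusted p = 0.0256 and 0.0478). It ranged from 0 to 1 with 1 array left out, the 1 being Ets1 without control 3. The median difference, -0.12, ranged from -0.19 to -0.08 over the other alternatives and from -0.14 to -0.05 with 1 array left out, so that each shift from -0.12 was smaller than the SD of the array medians within groups (0.08). Of 577 values of single genes under the alternatives, 574 kept their side of the threshold, 3 gained a call and 32 changed sign without one. The number of separated genes on the low side was 6 with median scaling, the authors' intensity and the value table, from 8. Each middle number of the array titles is shared by 1 mutant and 1 control array, and its meaning is not given. Deviations from the group means correlated at 0.02, -0.49 and -0.38 between same-numbered arrays. These values cannot show whether such arrays share a litter or a batch. With this number as a replicate block 0 genes passed, with a median of -0.12. Over all 17589 probes, 9 passed in the main setting, 5 with the subtracted intensity, the value table or the mean of probes, 4 with the authors' intensity, 0 with the replicate block, 1308 with the first code as a block and 0 to 291 with 1 array left out. Low signal limits Cdh5, Flt1 and S1pr1.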
